A study of Mus musculus with 9 samples.

Results

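The cytosolic and mitochondrial chaperones are the genes whose proteins fold, refold and hand on other proteins in the cytosol and in the mitochondrial matrix. The rule that picks them uses names and no measured value, although the list was drawn up with earlier results of these data known: 33 gene symbols were looked up in the GENCODE M21 annotation, and all 33 had a row among the 28137 Ensembl gene identifiers of the expression table, of which 27533 had a name there. They comprise the heat shock factor Hsf1, 3 Hsp70 chaperones, 4 mitochondrial chaperones, 2 Hsp110 proteins, Bag3, 4 J-domain proteins and 2 Hsp90 chaperones. The others are 7 Hsp90 cochaperones, 8 subunits of the chaperonin CCT and the small heat shock protein Hspb1. St13, an Hsp70-interacting protein, is counted with the Hsp90 cochaperones.

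The study measured polyadenylated RNA in RAW264.7, a macrophage-like line grown from a mouse leukemia, by paired-end RNA-seq. All 9 libraries came from cells transfected with siRNA at 60 nM for 6 h, kept in complete medium for 12 h and then given lipopolysaccharide (LPS), a bacterial cell wall product that activates macrophages, at 100 ng/ml for 24 h. There were 3 NC libraries (a control siRNA), 3 SFRP2 siRNA libraries (against Sfrp2, a secreted modulator of Wnt signaling) and 3 RAB6A siRNA libraries (against Rab6a, a small GTPase of Golgi transport). No library without LPS or without transfection was analysed here, so LPS and transfection were shared by all groups. The cells are 1 line, nothing in the labels says that the libraries of a group came from separate cultures, the labels do not say whether the 3 libraries of a group shared 1 siRNA sequence (the study lists 3 numbered siRNAs for SFRP2), and p-values therefore measure the spread between these libraries, which may be technical.

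Hsp70 chaperones bind short hydrophobic stretches of unfolded proteins in a cycle driven by ATP, which J-domain proteins start and nucleotide exchange factors end. Hsp90 takes over many of these clients with the help of its own cochaperones, and CCT folds actin and tubulin inside a double ring. In the mitochondrial matrix, Hsp70, the Hsp60 ring and its Hsp10 lid fold the proteins that arrive through the import channel, and in the cytosol Hsf1, held in check by chaperones, turns on heat shock genes through repeats of the unit GAA when unfolded proteins accumulate.

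The promoters were read because these genes are known for those repeats. RefSeq windows on GRCm38.p6 run from 250 bases before to 50 bases after each annotated start. They were read for 26 of the 33 members (34 windows). No window was read here for Cct4, St13, Hspa9, Hsf1, Hspa8, Hsp90aa1 and Hsp90ab1, so nothing is said about their promoters. A pair of units, GAANNTTC or TTCNNGAA, which each read the same on both strands, occurred in 16 of the 34 windows (47.1%) and in 15.1% of all 32851 windows. Runs of 3 units, GAANNTTCNNGAA or its reverse complement TTCNNGAANNTTC, each of which contains both of the pairs, occurred in 5 of the 34 windows (14.7%) and in 0.603% of all windows. These 5 windows belonged to 4 genes, Hspd1, Hspe1, Chordc1 and Hsph1, the Hspd1 and Hspe1 windows held the same site, and the 2 Hsph1 windows overlapped. A match is a description of the letters only, and binding was not measured here.

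The Hspa1a and Hspa1b sequences are shown because these neighbouring, single-exon genes encode nearly the same protein, while their levels in the table were not alike. The 250 bases before each start are given 5′ to 3′ on the minus strand, chr17:34972157-34972406 for Hspa1a and chr17:34959239-34959488 for Hspa1b (GRCm38.p6), with the GAA pair in capitals.
Hspa1a: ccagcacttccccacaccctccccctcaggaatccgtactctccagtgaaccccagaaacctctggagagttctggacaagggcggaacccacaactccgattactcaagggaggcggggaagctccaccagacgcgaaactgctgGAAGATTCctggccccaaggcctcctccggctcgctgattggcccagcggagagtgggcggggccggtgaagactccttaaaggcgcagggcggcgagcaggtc
Hspa1b: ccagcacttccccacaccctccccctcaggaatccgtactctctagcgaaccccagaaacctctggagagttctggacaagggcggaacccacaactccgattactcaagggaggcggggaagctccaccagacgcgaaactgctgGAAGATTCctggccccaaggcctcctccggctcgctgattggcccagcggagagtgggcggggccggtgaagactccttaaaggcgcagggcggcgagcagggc
They were the same at 247 of 250 positions, and both held 1 pair, which began at position -104 from the start.

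The runs of 3 or more units are shown for the 4 genes that held one, with the run in capitals and each strand read 5′ to 3′. Hspd1 (minus strand) and Hspe1 (plus strand) are transcribed away from each other from chromosome 1, and chr1:55088053-55088082 is printed once for each strand. Chordc1 is read from chr9:18292260-18292288 (plus strand) and Hsph1 from chr5:149636280-149636308 (minus strand), all on GRCm38.p6.
Hspd1: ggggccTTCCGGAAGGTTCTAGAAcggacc
Hspe1: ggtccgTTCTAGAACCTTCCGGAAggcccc
Chordc1: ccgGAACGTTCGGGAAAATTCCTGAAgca
Hsph1: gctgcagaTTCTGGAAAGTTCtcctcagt
Counted from each start, the run begins at position -144 in Hspd1, -89 in Hspe1, -4 in Chordc1 and 15 in Hsph1. From the other annotated start of Hsph1, the same run begins at position 36.

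Values are FPKM (fragments per kilobase of exon, scaled to the depth of the library). They are per length of all annotated exons of a gene, so that levels of different genes also depend on that annotation. The totals behind the FPKM came to between 32758729 and 47149258 reads per library. A test used limma on log2(FPKM + 0.1) over the 6 libraries of a comparison, for all genes with a mean of at least 0.5 FPKM, and a gene was called at a Benjamini-Hochberg adjusted p under 0.05 over all genes tested. Rab6a was lower in the RAB6A siRNA libraries (20.7 ± 0.445 against 25.7 ± 1.48 FPKM, SD, n = 3, limma adjusted p = 0.0024), a fold of 0.809. This change was larger in size than that of only 26.7% of the 12712 genes tested, of which 74.1% were called. The call alone therefore does not show a strong or specific knockdown. Sfrp2 lay between 0.0197 and 0.0567 FPKM in all libraries, too low to check its siRNA. The 10 macrophage markers fixed for the check were present in every library, with a summed level of 4788 to 5262 FPKM in NC, 4233 to 4583 in SFRP2 siRNA and 4336 to 4577 in RAB6A siRNA libraries. Among them, Lyz2, Csf1r, Spi1 and Fcgr1 were called lower and Tyrobp and Ptprc higher in the RAB6A siRNA libraries, and the part of this shift in the results below was not tested. Markers of T and B cells summed to at most 0.345 FPKM (5 of 7 had a row, with Cd3g at 0 in all NC and SFRP2 siRNA libraries) and those of fibroblasts and epithelia to 1.42 to 2.31 FPKM in NC, 1.54 to 2.38 in SFRP2 siRNA and 2.05 to 3.44 in RAB6A siRNA libraries, where Col1a2 and Dcn were called higher; the part of these was not tested either. In such bulk RNA, fewer cells with a transcript and less transcript per cell cannot be told apart.

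By FPKM the chaperones were among the most abundant transcripts of the NC libraries. 11 of the 33 members had a mean of at least 100 FPKM, and 28 of at least 10. Hsp90ab1, the constitutive cytosolic Hsp90, came first with 1003 ± 45.2 FPKM (SD, n = 3), above 99.8% of the 11979 genes with a mean of at least 0.5 FPKM. Hspa8, the constitutive Hsp70 also called Hsc70, followed with 356 ± 20.0, the second cytosolic Hsp90, Hsp90aa1, with 340 ± 22.6, and the mitochondrial Hsp60, Hspd1, with 305 ± 14.0 FPKM, levels that the plot by library shows close together. The genes best known for induction by heat were the lowest: Hspa1b had 1.36 ± 0.313, Hspb1 0.152 ± 0.0835 and Hspa1a 0.0054 FPKM. Hspa1a and Hspb1 fell under the filter in all 3 comparisons, so that 31 of the 33 members were tested in each.

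**Figure D1:**
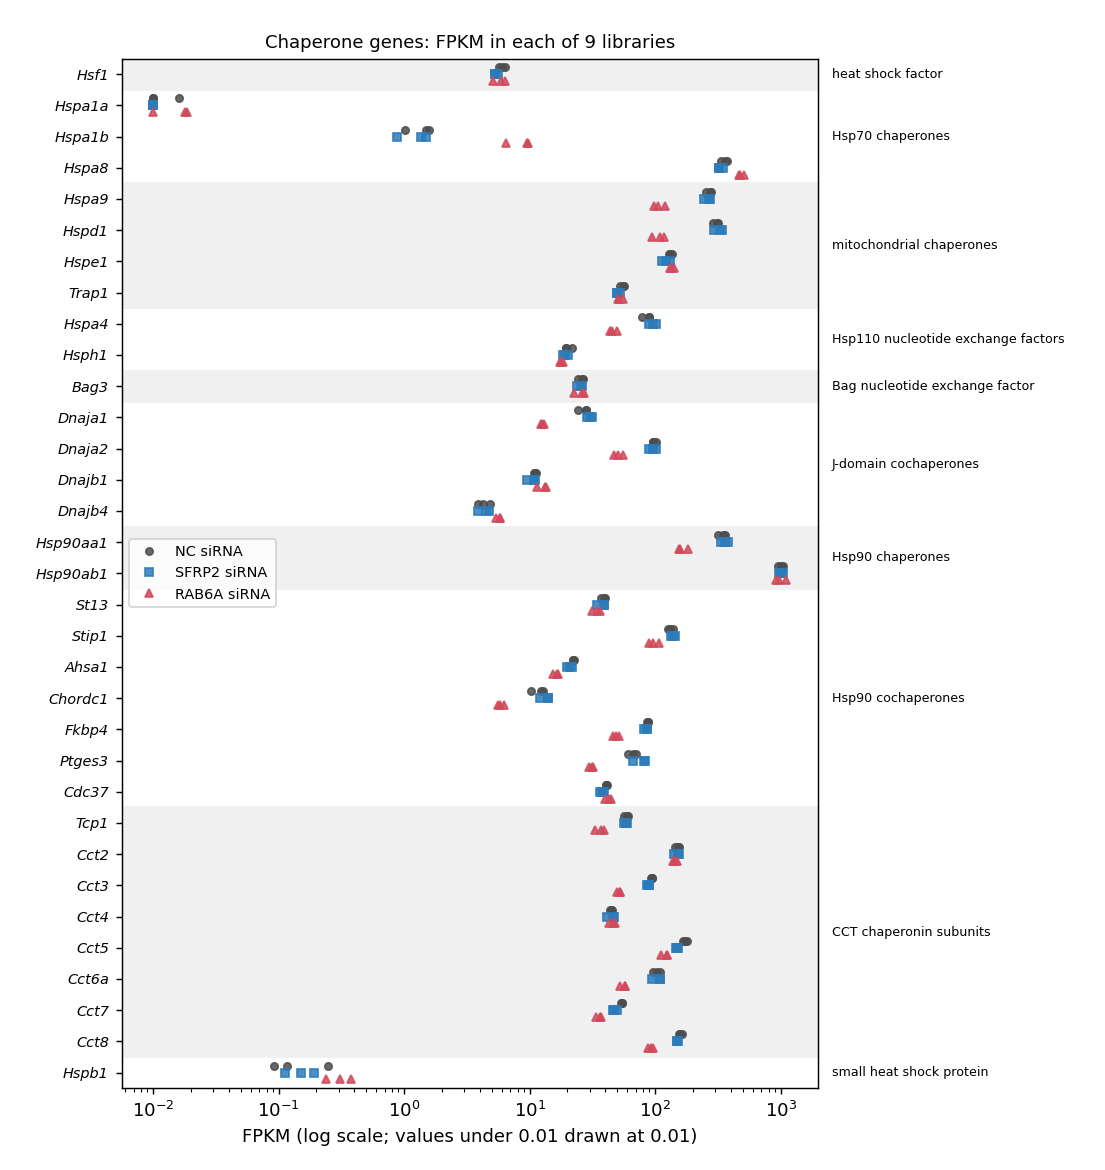
FPKM of the 33 chaperone genes in each of the 9 libraries on a log axis (values under 0.01 are drawn at its left end), grouped by role, with circles for NC, squares for SFRP2 siRNA and triangles for RAB6A siRNA. The triangles of Hspd1, Hspa9, Hsp90aa1 and most CCT subunits lie to the left of the other libraries, those of Hspa1b lie to the right, and circles and squares lie together for most genes.

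Summed over the 33 members, chaperone transcripts made up 1.08% ± 0.0161 of all FPKM in the NC, 1.07% ± 0.0314 in the SFRP2 siRNA and 0.76% ± 0.0528 in the RAB6A siRNA libraries (SD, n = 3). The summed FPKM of the members was 3973 ± 44.2 in the NC, 3936 ± 71.7 in the SFRP2 siRNA and 3090 ± 172 in the RAB6A siRNA libraries. All FPKM together came to 361817 to 372307 in the NC and 399883 to 410877 in the RAB6A siRNA libraries. The larger total therefore also lowers the RAB6A siRNA share. The sum is led by a few genes and was not tested.

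The first comparison, SFRP2 siRNA against NC, asks how these transcripts differ between LPS-treated cells given the SFRP2 siRNA and those given the control siRNA. A lower Sfrp2 level was not seen (0.0401 ± 0.0116 against 0.0213 ± 0.0014 FPKM, SD, n = 3, both under the filter), so the comparison rests on the labels. None of the 31 tested chaperones was called by limma, and neither was any of the 12017 genes tested (0% called, smallest adjusted p = 0.140). At an unadjusted p under 0.05, 4 members passed (1 higher, 3 lower) beside 2220 genes in all, or 18.5%, and voom on recovered reads called 41 genes and no member. The 3 libraries of each group did not overlap for 8 members (25.8%), 7 of them lower, beside 24.7% of all genes, a share near the background. The median log2 fold change of the members was -0.03, beside -0.01 for all genes.

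The member with the smallest p was Cct5, a subunit of the cytosolic chaperonin. Its level was 168, 173 and 178 FPKM in the NC libraries and 146, 149 and 152 in the SFRP2 siRNA libraries, so that every SFRP2 siRNA library lay below every NC library. The log2 fold change was -0.22 (SE 0.044, limma adjusted p = 0.165). Cct7, another subunit, gave -0.18 (SE 0.046, limma adjusted p = 0.178), and Cdc37, the cochaperone that brings protein kinases to Hsp90, -0.12 (SE 0.044, limma adjusted p = 0.232).

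On the other side stood Ptges3, the Hsp90 cochaperone p23, with 70.4, 66.2 and 61.0 FPKM in the NC and 82.8, 81.5 and 67.1 in the SFRP2 siRNA libraries, which overlapped. Its log2 fold change of 0.22 (SE 0.094, limma adjusted p = 0.267) was the largest among the members. The pseudogene Ptges3-ps, which shares 18.3% of the windows of 75 bases in the Ptges3 transcripts, went the other way. It had 103, 124 and 108 FPKM in the NC and 97, 99 and 102 in the SFRP2 siRNA libraries, and reads of the pair may be split. Dnaja1, a J-domain protein of the cytosol, gave 0.16 (SE 0.072, limma adjusted p = 0.28) and was the only member whose SFRP2 siRNA libraries all lay above the NC libraries. Hspa4, an Hsp110 nucleotide exchange factor, gave 0.16 (SE 0.073, limma adjusted p = 0.306). The mitochondrial Hsp90 Trap1 gave -0.11 (SE 0.048, limma adjusted p = 0.283) and Hsf1 -0.15 (SE 0.064, limma adjusted p = 0.274). Hspa8 gave -0.10 (SE 0.059, limma adjusted p = 0.39), which turned to 0.03 under quantile normalization. Hsp90aa1 gave 0.07 (SE 0.070, limma adjusted p = 0.602) and Bag3 -0.02 (SE 0.056, limma adjusted p = 0.841). Across the 31 members the log2 fold change ran against the GC content of the transcripts (Spearman rho -0.414), as it did across 11903 genes (rho -0.482), a description over genes of the same 6 libraries that are not independent of each other.

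The second comparison, RAB6A siRNA against NC, was not described in the study's text and is given here by its labels. In it, 23 of the 31 tested members were called (74.2%), beside 74.1% of the 12712 genes tested, so that the share of chaperones called was that of the transcriptome. Of the 31 tested members, 19 were called lower, beside 36.5% of all genes tested, and 4 were called higher, beside 37.6%. Among called genes alone, 19 of the 23 members were lower, beside 4641 of 9418 genes. 6 members were called with an absolute log2 fold change over 1, beside 30.1% of all genes. For 23 members (74.2%) the groups did not overlap, beside 77.4% of all genes. The median log2 fold change of the members was -0.47, beside 0.03 for all genes. After a correction for GC content and exon length 16 members were lower and 8 higher, beside 4221 lower and 5185 higher of 12535 genes, and the median was -0.30 beside 0.09 for all genes.

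**Figure D2:**
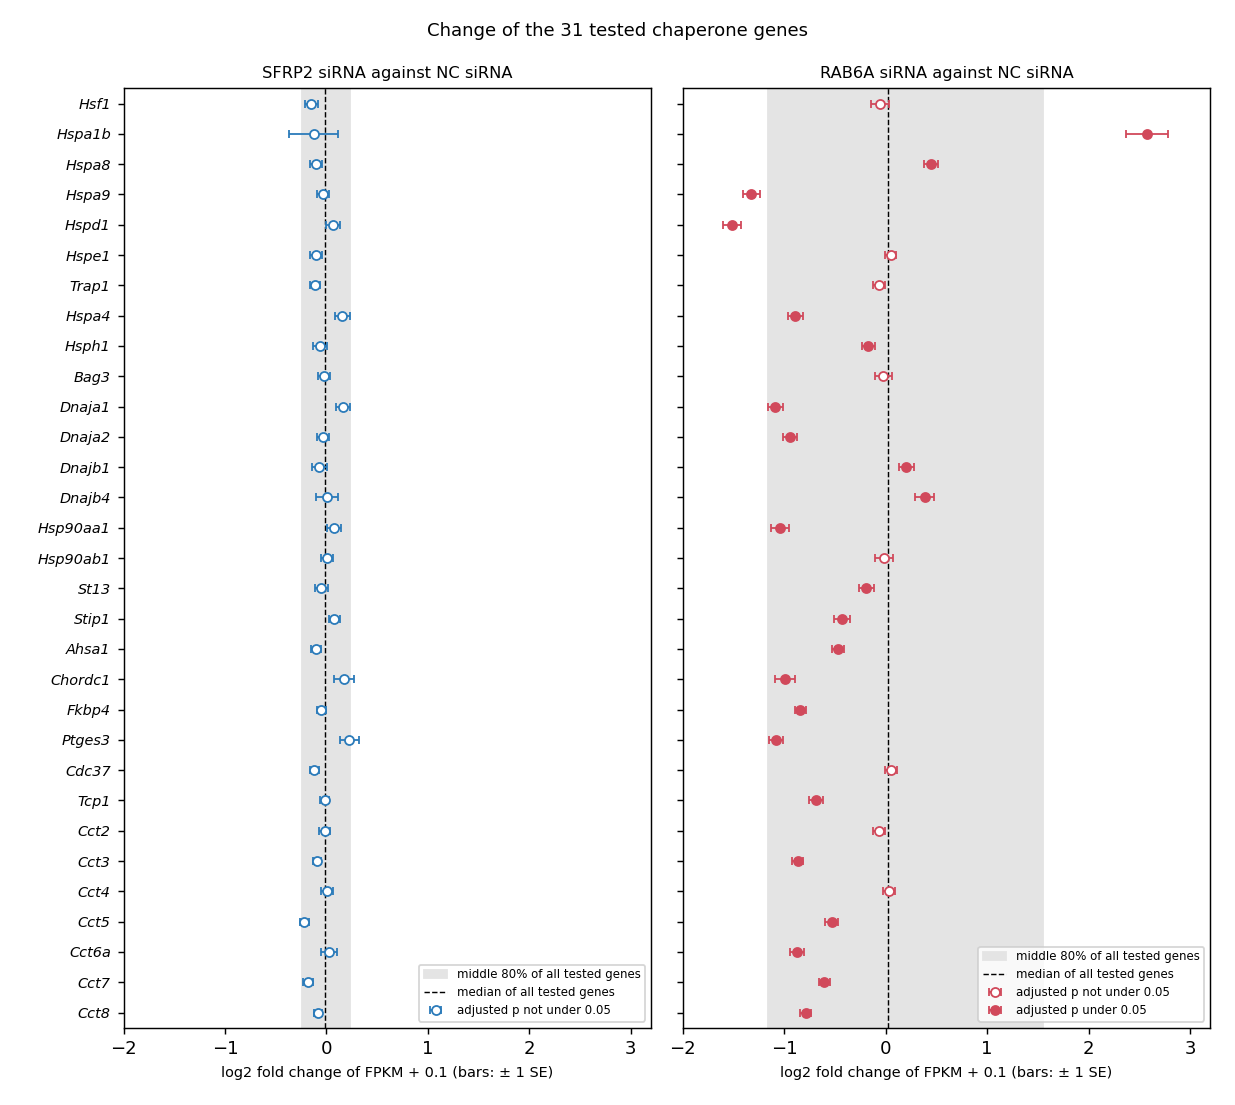
log2 fold change of FPKM + 0.1 for the 31 tested chaperone genes, SFRP2 siRNA against NC on the left and RAB6A siRNA against NC on the right, with bars of ± 1 SE, filled points for limma adjusted p under 0.05, a grey band for the middle 80% of all tested genes and a dashed line for their median. On the left no point is filled, and on the right 19 filled points lie below 0 and 4 above, with Hspa1b at 2.57 and Hspd1 at -1.52 as the ends.

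The mitochondrial chaperones split. Hspd1 (Hsp60, chr1:55077835-55088243, minus strand) encodes the folding ring of the matrix. It had 316, 310 and 289 FPKM in the NC libraries, 326, 340 and 294 in the SFRP2 siRNA libraries and 94.7, 109 and 118 in the RAB6A siRNA libraries. The RAB6A siRNA libraries stood apart from all others, with a log2 fold change of -1.52 (SE 0.089, limma adjusted p = 5.62e-06), the lowest among the members. Hspe1 (Hsp10, chr1:55088132-55091307, plus strand) encodes the lid of that ring and shares its promoter region. It had 135, 129 and 130 FPKM in the NC, 131, 122 and 114 in the SFRP2 siRNA and 132, 141 and 134 in the RAB6A siRNA libraries, so that RAB6A siRNA and NC libraries overlapped (log2 fold change 0.05, SE 0.055, limma adjusted p = 0.447). The ratio of Hspd1 to Hspe1 FPKM was 2.35, 2.41 and 2.23 in the NC, 2.5, 2.79 and 2.58 in the SFRP2 siRNA and 0.718, 0.768 and 0.882 in the RAB6A siRNA libraries. Both siRNA groups lay wholly apart from NC in this ratio (exact two-sided permutation p = 0.1 each, the smallest that 3 against 3 libraries allow, and 0.12 after adjustment over the 12 ratio tests made).

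Hspa9, the mitochondrial Hsp70 also called mortalin, had 276, 274 and 256 FPKM in the NC, 267, 275 and 245 in the SFRP2 siRNA and 97.5, 105 and 120 in the RAB6A siRNA libraries. Its log2 fold change was -1.32 (SE 0.085, limma adjusted p = 8.24e-06), next to that of Hspd1. Trap1 did not follow them, with 56.5, 55.4 and 52.6 FPKM in the NC and 51.5, 55.2 and 50.4 in the RAB6A siRNA libraries (log2 fold change -0.07, SE 0.059, limma adjusted p = 0.33). The summed level of the 4 genes was 760 ± 28.5 FPKM in the NC, 755 ± 45.1 in the SFRP2 siRNA and 403 ± 24.1 in the RAB6A siRNA libraries (SD, n = 3).

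The Hsp70 chaperones moved the other way, Hspa8 with the exception of quantile normalization. Hspa1b encodes the heat-inducible Hsp70 (chr17:34956436-34959238, minus strand) and had 1.59, 1.01 and 1.49 FPKM in the NC, 1.37, 0.881 and 1.49 in the SFRP2 siRNA and 9.71, 9.56 and 6.51 in the RAB6A siRNA libraries, or 133 to 186, 96 to 156 and 598 to 1014 reads. The lowest RAB6A siRNA library stood well above the highest of the others. Its log2 fold change of 2.57 (SE 0.208, limma adjusted p = 2.32e-05), a fold of 5.95, was the largest among the members and larger in size than that of 95.2% of all genes tested. The near-identical Hspa1a (chr17:34969190-34972156, minus strand) held 2 reads in 1 NC and 2 RAB6A siRNA libraries and none in the other 6, below a floor of 3 reads, so that no fold is given. Of the windows of 75 bases in the Hspa1b transcripts, 55.8% also occurred in Hspa1a, and how the counting treated reads that match both is not given, so that the split between the pair is uncertain.

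Hspa8 had 333, 363 and 371 FPKM in the NC, 325, 324 and 347 in the SFRP2 siRNA and 478, 509 and 465 in the RAB6A siRNA libraries. All RAB6A siRNA libraries were above all others, with a log2 fold change of 0.45 (SE 0.071, limma adjusted p = 0.000777). This direction turned under quantile normalization, which gave -0.20 (adjusted p = 0.0277), and the GC and length correction gave 0.78. A processed pseudogene, Gm15459, shared 30.2% of the Hspa8 windows and was itself listed at 370 ± 3.23 FPKM in the NC and 433 ± 24.5 in the RAB6A siRNA libraries (SD, n = 3), so that reads of the pair may be split. Hspa1a and Hspa1b together reached 0.00387 ± 0.00104 of the Hspa8 level in the NC and 0.0177 ± 0.00332 in the RAB6A siRNA libraries (exact two-sided permutation p = 0.1).

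**Figure D3:**
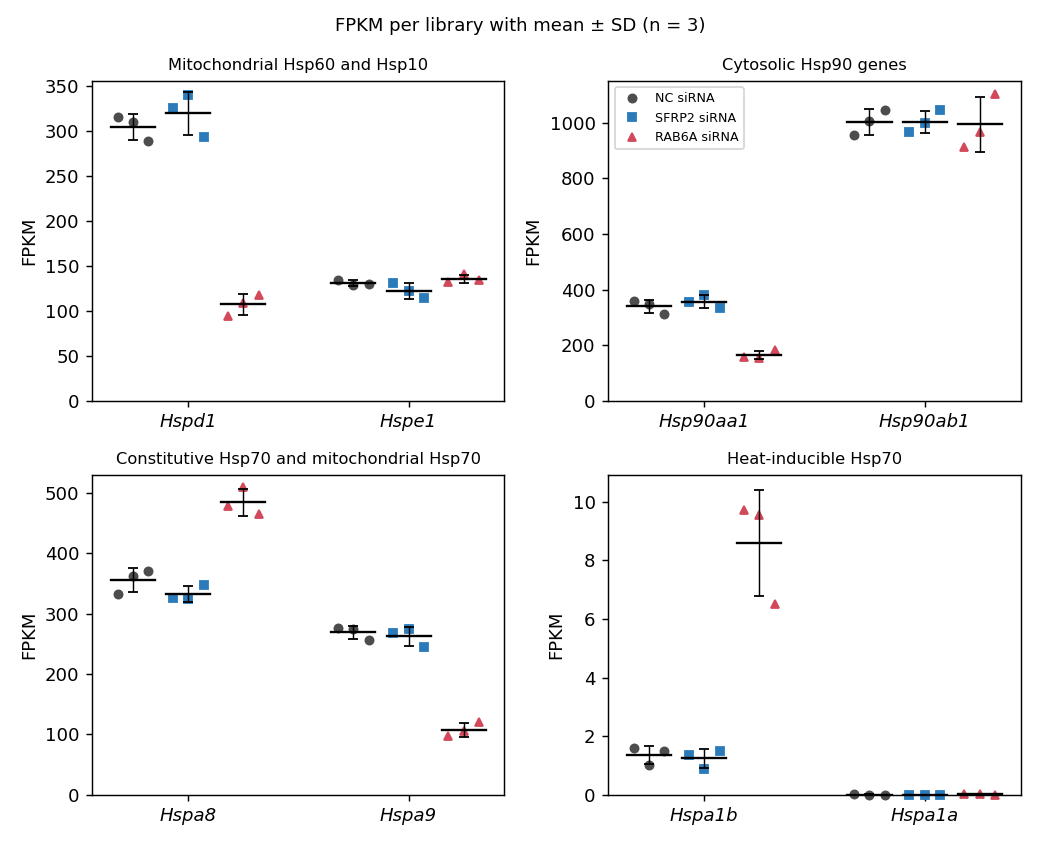
FPKM on linear axes from 0 for 4 pairs of chaperone genes, with 3 points per group for the libraries, a line for the mean and bars of ± 1 SD. Hspd1 fell from 305 to 107 FPKM in the RAB6A siRNA libraries while Hspe1 lay between 129 and 141 in NC and RAB6A siRNA libraries, Hsp90aa1 fell from 340 to 165 while Hsp90ab1 lay between 912 and 1103 in all libraries, Hspa8 and Hspa9 moved in opposite directions (Hspa8 turned under quantile normalization), and Hspa1b rose while Hspa1a lay at or near 0.

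The cytosolic Hsp90 pair split as the matrix chaperonin did. Hsp90aa1, the stress-inducible member, had 358, 347 and 314 FPKM in the NC, 357, 379 and 334 in the SFRP2 siRNA and 157, 155 and 183 in the RAB6A siRNA libraries. It was lower in every RAB6A siRNA library than in any other, with a log2 fold change of -1.04 (SE 0.086, limma adjusted p = 2.56e-05). Hsp90ab1 had 956, 1008 and 1046 FPKM in the NC, 966, 999 and 1045 in the SFRP2 siRNA and 912, 969 and 1103 in the RAB6A siRNA libraries. The 3 groups overlapped throughout (log2 fold change -0.02, SE 0.091, limma adjusted p = 0.883). The ratio of Hsp90aa1 to Hsp90ab1 was 0.34 ± 0.0371 in the NC, 0.356 ± 0.0319 in the SFRP2 siRNA and 0.166 ± 0.00621 in the RAB6A siRNA libraries (SD, n = 3, exact two-sided permutation p = 0.1 for RAB6A siRNA against NC and 0.6 for SFRP2 siRNA against NC). The direction of Hsp90ab1 depended on scaling: quantile normalization gave -0.47 (called) and the GC and length correction 0.23 (called), while Hsp90aa1 was lower in both. Of the Hsp90aa1 windows, 42.8% also occurred in other genes, mainly the pseudogene Gm12346, which was listed at no more than 3.24 FPKM.

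All 7 genes grouped here as Hsp90 cochaperones were tested, the Hsp70-interacting St13 among them. Of these, 6 were called lower, beside 36.5% of all genes called lower and 74.1% called in either direction. Ptges3 had 31.9, 29.7 and 31.4 FPKM in the RAB6A siRNA libraries, below all NC libraries given above, with a log2 fold change of -1.08 (SE 0.068, limma adjusted p = 7.59e-06). Chordc1 is a zinc-binding partner of Hsp90. Its promoter holds the longest run of GAA units among the 26 members whose windows were read. Chordc1 had 12.8, 12.4 and 10.3 FPKM in the NC and 5.58, 5.84 and 6.25 in the RAB6A siRNA libraries. It was lower in each of them, with a log2 fold change of -0.99 (SE 0.097, limma adjusted p = 6.1e-05). Fkbp4, the immunophilin FKBP52 that serves steroid receptors, fell from 87.4 ± 1.23 to 48.7 ± 2.31 FPKM (log2 fold change -0.84, SE 0.055, limma adjusted p = 9.09e-06). Stip1, the Hop protein that joins Hsp70 to Hsp90, fell from 132 ± 6.00 to 98.01 ± 9.53 FPKM (log2 fold change -0.43, SE 0.081, limma adjusted p = 0.00193). Ahsa1, which speeds the Hsp90 ATPase, fell from 22.3 ± 0.158 to 16.1 ± 0.789 FPKM (log2 fold change -0.47, SE 0.057, limma adjusted p = 0.000185). St13, the Hsp70-interacting protein Hip, fell least of these, from 38.8 ± 1.41 to 34.1 ± 2.60 FPKM (log2 fold change -0.19, SE 0.070, limma adjusted p = 0.04). Cdc37 was the cochaperone not called, with 41.5, 40.6 and 40.9 FPKM in the NC and 40.1, 44.5 and 43.1 in the RAB6A siRNA libraries (log2 fold change 0.05, SE 0.056, limma adjusted p = 0.421). It was called higher under quantile normalization (0.22, adjusted p = 0.00629) and with the GC and length correction (0.32, adjusted p = 0.000746).

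Among the partners of Hsp70, the exchange factor Hspa4 fell, with 89.4, 89.9 and 78.2 FPKM in the NC, 95.5, 102 and 89.5 in the SFRP2 siRNA and 43.8, 45.3 and 49.8 in the RAB6A siRNA libraries. The RAB6A siRNA libraries were well below the rest (log2 fold change -0.89, SE 0.078, limma adjusted p = 3.53e-05). Its relative Hsph1, also called Hsp105, went from 20.1 ± 1.39 in the NC to 17.8 ± 0.456 FPKM in the RAB6A siRNA libraries (log2 fold change -0.17, SE 0.065, limma adjusted p = 0.0461). Bag3, an exchange factor that steers clients to autophagy, had 26.1, 24.3 and 26.5 FPKM in the NC and 22.4, 26.2 and 27.3 in the RAB6A siRNA libraries, which overlapped (log2 fold change -0.03, SE 0.084, limma adjusted p = 0.802). Hsf1 overlapped likewise, with 6.00, 5.66 and 6.32 FPKM in the NC and 5.12, 5.88 and 6.35 in the RAB6A siRNA libraries (log2 fold change -0.05, SE 0.093, limma adjusted p = 0.613). Hspb1, a small heat shock protein that holds unfolded clients without ATP, was close to its floor, with 4 to 12 reads in the NC, 4 to 8 in the SFRP2 siRNA and 8 to 14 in the RAB6A siRNA libraries.

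Of the 4 J-domain proteins among the members, 2 were called lower and 2 higher, beside 36.5% and 37.6% of all genes. With 2 genes of each class below, a difference between classes was not tested. Dnaja1 and Dnaja2 belong to the class with a zinc finger. Dnaja1 had 28.2, 28.2 and 24.2 FPKM in the NC, 30.3, 31.3 and 28.7 in the SFRP2 siRNA and 12.2, 12.5 and 13 in the RAB6A siRNA libraries, the last of which lay far below the others (log2 fold change -1.09, SE 0.075, limma adjusted p = 1.13e-05). Dnaja2 had 97.9 ± 3.50 in the NC and 50.9 ± 4.09 FPKM in the RAB6A siRNA libraries (log2 fold change -0.94, SE 0.071, limma adjusted p = 1.62e-05). Dnajb1 and Dnajb4 lack that finger. Dnajb4 rose, from 4.28, 4.81 and 3.89 FPKM in the NC to 5.84, 5.36 and 5.78 in the RAB6A siRNA libraries (log2 fold change 0.38, SE 0.092, limma adjusted p = 0.00634). Dnajb1, the usual starter of the Hsp70 cycle on aggregates, had 11, 11.3 and 10.8 FPKM in the NC and 13.5, 13.3 and 11.5 in the RAB6A siRNA libraries (log2 fold change 0.20, SE 0.076, limma adjusted p = 0.0403).

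Of the 8 CCT subunits, which are built into each ring once, 6 were called lower and 2 were not called, beside 36.5% of all genes called lower and 74.1% called in either direction. In the NC libraries their levels ran from 44.5 ± 0.955 FPKM for Cct4 to 173 ± 4.93 for Cct5. The FPKM of the highest and the lowest subunit of a library differed by 3.89 ± 0.193 times (SD, n = 3). This fold was 3.43 ± 0.245 in the SFRP2 siRNA and 4.08 ± 0.121 in the RAB6A siRNA libraries. The annotated exon length behind FPKM was 2557 bases for Cct2, 2766 for Cct5, 4201 for Cct4 and 6370 for Cct3. In NC library 1, Cct3 held more reads than Cct5 (24892 against 19370), so that the fold and the order of the subunits are those of FPKM. Cct3 gave the smallest p, with 93.9, 93.0 and 94.3 FPKM in the NC, 86.1, 89.1 and 89.0 in the SFRP2 siRNA and 49.4, 52.0 and 52.7 in the RAB6A siRNA libraries. The groups were wholly apart, and the RAB6A siRNA libraries were far lower (log2 fold change -0.87, SE 0.051, limma adjusted p = 5.64e-06). Cct6a, Cct8, Tcp1, Cct7 and Cct5 were also lower, with log2 fold changes of -0.87, -0.79, -0.69, -0.60 and -0.53 (SE 0.068, 0.058, 0.072, 0.055 and 0.065). Their limma adjusted p were, in that order, 1.98e-05, 1.44e-05, 8.59e-05, 4.1e-05 and 0.000186. Cct2 and Cct4 were not called on the deposited scale. Cct2 had 156, 153 and 144 FPKM in the NC and 139, 145 and 148 in the RAB6A siRNA libraries (log2 fold change -0.07, SE 0.057, limma adjusted p = 0.321), and Cct4 had 45.6, 44.3 and 43.7 and 43.1, 47.9 and 46.0 FPKM (log2 fold change 0.04, SE 0.058, limma adjusted p = 0.598). Rescaling gave calls for both: Cct2 was lower under quantile normalization (-0.24, adjusted p = 0.0132) and higher with the GC and length correction (0.15, adjusted p = 0.0246), and Cct4 was higher in both (0.19, adjusted p = 0.0182, and 0.37, adjusted p = 0.000468). Cct2, the third subunit by level in the NC libraries, was thereby the highest in the RAB6A siRNA libraries, and its ratio to Cct5 was 0.872 ± 0.0593 in the NC, 1.00 ± 0.0654 in the SFRP2 siRNA and 1.2 ± 0.0444 in the RAB6A siRNA libraries (SD, n = 3, exact two-sided permutation p = 0.1 for each siRNA against NC, adjusted 0.12).

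**Figure D4:**
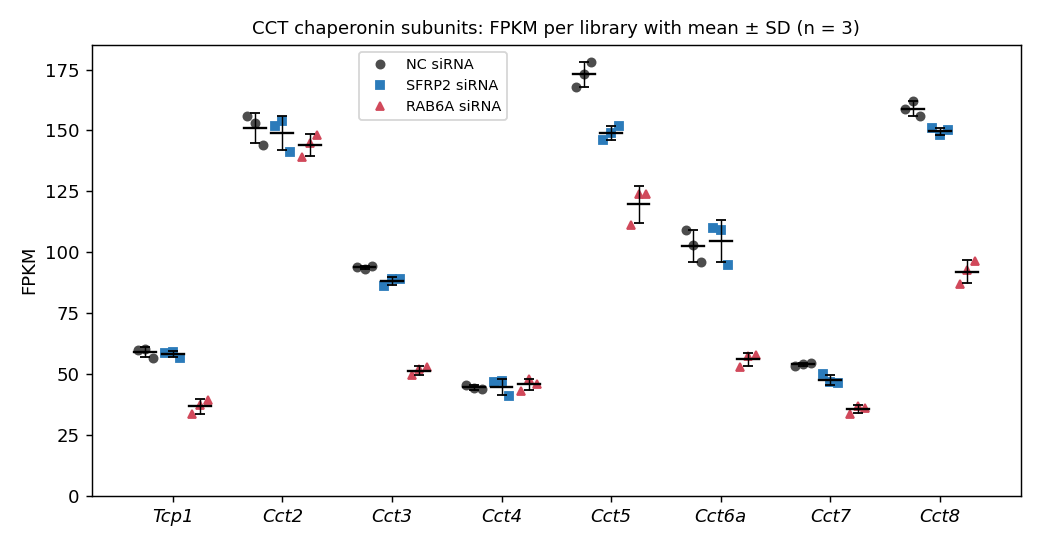
FPKM of the 8 CCT subunits in the 9 libraries on a linear axis from 0, with a line for the mean of a group and bars of ± 1 SD (n = 3). The RAB6A siRNA libraries lie below the NC libraries for 6 subunits and among them for Cct2 and Cct4.

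Of the 23 called members, 18 were called in the same direction under every alternative run, and Dnajb1, St13, Hsph1, Ahsa1 and Hspa8 were not. The call of Hsph1 was lost when any 1 of the 6 libraries was left out (adjusted p 0.0526 to 0.159) and its direction turned with the GC and length correction (0.13). That of Dnajb1 was lost without any 1 of NC libraries 1 to 3 or RAB6A siRNA libraries 1 and 2 (adjusted p 0.072 to 0.121). That of St13 was lost without NC library 1 or 2 or RAB6A siRNA library 1 or 2 (adjusted p 0.0703 to 0.118). The calls of Hsph1, Dnajb1 and St13 were also lost with no filter on low values, without a trend in the moderation and with the replicate block (limma adjusted p 0.0507 to 0.0829). St13 was not called under quantile normalization or the GC and length correction either. Of 18 alternatives, Dnajb1 was called in 10, St13 in 8 and Hsph1 in 6. Ahsa1 was not called after the GC and length correction (-0.14, adjusted p = 0.0946). Across the 31 members the log2 fold change rose with GC content (Spearman rho 0.425), beside rho 0.0785 over 12535 genes, given as a description over genes that share these 6 libraries. Members whose transcripts share more than 10% of their windows of 75 bases with other annotated genes were Hspa1a, Hspa1b, Hspb1, Hsp90aa1, Hspa8, Hspd1, Ptges3, Hspe1 and Dnaja1, 9 of the 33, and reads of these genes may be split with their copies. The copy of Ptges3, Ptges3-ps, was listed at 112 ± 10.7 FPKM in the NC and 30.4 ± 2.60 in the RAB6A siRNA libraries, and that of Dnaja1, Gm15542, at 24.6 ± 1.29 and 14.9 ± 1.33 FPKM (SD, n = 3). AC117239.2, which shares sequence with Hspe1, was listed at 210 ± 23.5 FPKM in the NC and 152 ± 8.31 in the RAB6A siRNA libraries, against the Hspe1 levels above, while Hspd1-ps3, which shares 28.6% of the Hspd1 windows, stayed at or under 10.2 FPKM.

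The third comparison sets the RAB6A siRNA against the SFRP2 siRNA libraries. It shares each of its groups with one of the comparisons above and is no independent repeat of them. Here 22 of 31 members were called, beside 73.4% of 12764 genes. Of the same 31, 17 were called lower, beside 35.8% of all genes tested, and 5 higher, beside 37.6%. 8 members were past the fold threshold, beside 31.1% of all genes, and 24 (77.4%) did not overlap, beside 77% of all genes. The count of higher calls fell to 3 when SFRP2 siRNA library 2 or RAB6A siRNA library 2 was left out, and the median over the members was -0.37, beside 0.03 for all genes. With the GC and length correction 15 members were lower and 8 higher, beside 4138 lower and 5101 higher of 12576 genes, and the median was -0.11 beside 0.10 for all genes. Hspd1 again stood lowest (log2 fold change -1.58, SE 0.097, limma adjusted p = 1.07e-05) and Hspa1b highest (2.70, SE 0.226, limma adjusted p = 3.96e-05). Dnaja1 had the smallest p (-1.25, SE 0.059, limma adjusted p = 4.27e-06), followed by Hspd1, by Cct3 (-0.78, SE 0.052, limma adjusted p = 1.5e-05) and by Ptges3 (-1.31, SE 0.090, limma adjusted p = 1.67e-05). Hspa4 gave -1.04 (SE 0.073, limma adjusted p = 1.85e-05), Hsp90aa1 -1.11 (SE 0.086, limma adjusted p = 2.78e-05), Hspa8 0.54 (SE 0.066, limma adjusted p = 0.000248), which turned to -0.21 under quantile normalization, and Dnajb4 0.38 (SE 0.092, limma adjusted p = 0.00737). Hsf1 (0.09, SE 0.091, limma adjusted p = 0.377) and Bag3 (0.00, SE 0.085, limma adjusted p = 0.994) were not called.

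The other genes of these families come from lists written with earlier results of these data known. In RAB6A siRNA against NC they were called in both directions, beside 37.6% of all genes called higher and 36.5% called lower. Of 26 tested J-domain proteins outside the members, 6 were higher and 10 lower, from Dnajb14 of the endoplasmic reticulum membrane (log2 fold change 1.39, SE 0.139, limma adjusted p = 6.59e-05) to Dnajc11 of the mitochondrial membrane (-1.56, SE 0.068, limma adjusted p = 2.05e-06). Of 10 further exchange factors and Hsp70 regulators, 2 were higher, with the mitochondrial Grpel2 leading (1.06, SE 0.072, limma adjusted p = 1.04e-05), and 3 lower, with Bag5 the lowest (-2.27, SE 0.079, limma adjusted p = 1.13e-06). Of 2 tested Hsp70 and Hsp110 relatives, Hspa4l was higher (0.58, SE 0.108, limma adjusted p = 0.00186). Of 18 tested Hsp90 cochaperones and TPR proteins, 3 were higher, led by Sugt1 (0.87, SE 0.074, limma adjusted p = 2.91e-05), and 8 lower, down to the AAA ATPase Ruvbl1 (-1.26, SE 0.071, limma adjusted p = 4.86e-06).

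The helpers of CCT and of the mitochondrial matrix were called in both directions, beside the same 37.6% of all genes called higher and 36.5% called lower. Of 9 tested prefoldin subunits and CCT cofactors, 5 were higher, with Pfdn1 at 1.04 (SE 0.126, limma adjusted p = 0.000185), and 3 lower, with Pdcl3 at -0.35 (SE 0.064, limma adjusted p = 0.00146), and their median was 0.33 beside -0.64 for the 8 CCT subunits and 0.03 for all genes. Of 11 tested mitochondrial proteases and import chaperones, 6 were higher, led by the iron-sulfur cochaperone Hscb (1.31, SE 0.082, limma adjusted p = 7.51e-06), and 2 lower, with the protease Htra2 lowest (-0.35, SE 0.068, limma adjusted p = 0.00236). Their median was 0.20 beside -0.70 for the 4 mitochondrial chaperones. That median lies between Hspd1 (-1.52) and Hspa9 (-1.32), which were called lower, and Trap1 (-0.07) and Hspe1 (0.05), which were not called. Of 4 tested genes outside the members that were listed as small heat shock proteins, 2 were called higher and 1 lower. The higher ones were Hspb6 and Hspb11 (1.43, SE 0.139, limma adjusted p = 5.87e-05 for Hspb11). The place of Hspb11 in that list rests on its symbol. Cryab was lower (-1.60, SE 0.262, limma adjusted p = 0.000901). Of 3 tested heat shock factors and regulators, Hsf2 (0.96, SE 0.104, limma adjusted p = 0.000101) and Hsbp1 were higher and the segregase Vcp was lower (-0.61, SE 0.070, limma adjusted p = 0.000139). In the SFRP2 siRNA against NC comparison none of these genes was called by limma.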

How the data were processed

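Paired-end RNA-seq of RAW264.7 cells was available as 1 table of FPKM with 9 columns, 1 per library, all of which had a sample. The authors aligned and counted reads before they deposited FPKM: the submitters' processing notes name HISAT2, featureCounts and Subread, and their versions, the genome build, the annotation, strandedness and the handling of multiply mapped reads are not given in the sources used here. The FPKM file holds no coordinates, and those printed are from GENCODE M21 and RefSeq (both GRCm38), which may not be the build the authors used. Culture details follow the labels, since the methods of the study describe another siRNA amount and an added cytokine.

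Groups were taken from the treatment label. Identifiers were matched to GENCODE M21 for symbols, exon length and GC content. FPKM times exon length gave whole reads within 0.03 reads for 27084 identifiers (98.4% of those named), from which read counts and library totals were taken. For Cct6a they were not whole. The study's methods name DESeq2, which the authors used and which needs counts, so on this FPKM table limma 3.58.1 in R 4.3.3 (lmFit, eBayes with trend) was fitted on log2(FPKM + 0.1), for genes averaging 0.5 FPKM or more across both groups and Benjamini-Hochberg adjustment over all genes tested. A log2 fold change is thus on the log2(FPKM + 0.1) scale and understates low genes. The fit was tested on simulated data. Ratios used scipy 1.17.1 for exact two-sided permutation tests. Windows of 75 bases were compared over all GENCODE M21 transcripts. Alternatives changed the pseudocount, filter, scaling, moderation, block, libraries, GC and length correction, and the test (voom on recovered reads). Members and lists were chosen with earlier results of these data known. All members were named by role, with full statistics for the extremes, the 3 smallest p in each direction and the best of each role, for all tested members in RAB6A siRNA against NC (an extension made after values were seen), and for the extremes of each companion list, except for an item that is not reported here. Intervals and floors of reads cover counting error only.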

Additional observations from a re-analysis of the deposited data

How the results depend on the processing

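There were 18 alternatives per comparison, libraries left out included, and an unadjusted threshold. Each changed 1 setting, except the replicate block joined with the GC and length correction. In SFRP2 siRNA against NC, voom on recovered reads called 41 genes, 2 past the fold, in place of 0, and an unadjusted p under 0.05 gave 2220 and 62 genes with 1 member higher and 3 lower. Leaving out 1 library gave 0 to 1 genes, and 0 to 1 past the fold, the 1 without NC siRNA library 1. With a pseudocount of 1 the genes past the fold were 2389 in place of 3829 in RAB6A siRNA against NC and 2501 in place of 3972 against SFRP2 siRNA. The correction for GC content and exon length gave 8 members called higher in both (7 in the first when joined with the replicate block). Against SFRP2 siRNA the members called higher were 3 without a trend in the moderation, and 3 to 5 with 1 library left out, 3 without SFRP2 siRNA or RAB6A siRNA library 2. The members' median ran from -0.50 to -0.30 for RAB6A siRNA against NC and from -0.52 to -0.11 against SFRP2 siRNA.

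Among the directions checked, those that turned were of small changes, and of Hspa8. Outside RAB6A siRNA against NC, only the members given with statistics above were checked, so other small changes may also turn. In RAB6A siRNA against NC, quantile normalization gave -0.20 for Hspa8, -0.089 for Hspe1, 0.072 for Trap1 and 0.11 for Bag3. The GC and length correction, with or without the replicate block, gave 0.14 for Hsf1, -0.03 for Hspe1, 0.094 for Trap1, 0.13 for Hsph1, 0.23 for Hsp90ab1 and 0.15 for Cct2. With 1 library left out Hsp90ab1 ran from -0.092 to 0.044 (above 0 without NC siRNA library 3 or RAB6A siRNA library 1 or 2), Hsf1 from -0.124 to 0.028 and Bag3 from -0.082 to 0.06 (both above 0 without RAB6A siRNA library 1). In SFRP2 siRNA against NC, Hspa8 gave 0.03 with quantile normalization, and Bag3 0.094 with the GC and length correction, and -0.062 to 0.011 with 1 library left out (above 0 without NC siRNA library 3 or SFRP2 siRNA library 2). Against SFRP2 siRNA, quantile normalization gave -0.21 for Hspa8 and 0.12 for Bag3, and Bag3 gave 0.006 with voom and -0.058 to 0.084 with 1 library left out (above 0 without SFRP2 siRNA library 1 or 3 or RAB6A siRNA library 1). Apart from the quantile and GC settings, which rescale by construction, the cause was not tested.

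Libraries of the same number did not deviate together (correlations of -0.0847 to 0.0477 over all genes and comparisons), so the numbers were not taken as pairs. With the replicate block, 9103 genes were called in RAB6A siRNA against NC in place of 9418, with 3 members higher and 17 lower, 9159 against SFRP2 siRNA in place of 9369, and 0 in SFRP2 siRNA against NC. Hspa1a and Hspb1 held at most 2 and 14 reads, and 54.2% and 46.4% of their windows of 75 bases also occur in other genes.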

Other observations

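The chaperones of the endoplasmic reticulum, outside the cytosolic and mitochondrial set, were called in both directions in RAB6A siRNA against NC. Of 16 tested, 7 were higher and 7 lower, beside 37.6% of all genes called higher and 36.5% called lower. The median log2 fold change of the 16 was -0.02. The highest was Sil1, the exchange factor of the lumenal Hsp70 (log2 fold change 1.40, SE 0.096, limma adjusted p = 1.11e-05), and the lowest the lectin chaperone Canx (-0.63, SE 0.081, limma adjusted p = 0.000242). None was called in SFRP2 siRNA against NC, where 4 of 16 passed an unadjusted p of 0.05 in the limma fit, beside 18.5% of all genes.

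Of 7 tested partners in aggregate handling and degradation, 2 were higher and 3 lower in RAB6A siRNA against NC, beside 37.6% and 36.5% of all genes. The lower ones were Ubqln1, Ubqln2 and the ubiquitin ligase Huwe1 (-1.08, SE 0.066, limma adjusted p = 6.9e-06 for Huwe1). The median of the 7 was -0.13. In SFRP2 siRNA against NC none was called by limma and 5 of 7 passed an unadjusted p of 0.05, beside 18.5% of all genes.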
